A study of Mus musculus with 2 samples.

Results

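The genes of cholesterol synthesis and of its control were followed through the leukocytes of inflamed mouse skin. There were 30 of them among the 27998 genes in the files, taken by symbol, and each symbol matched 1 row. Of these, 18 encode enzymes of synthesis, 5 sense sterols and control the pathway, 3 move, store or hydroxylate cholesterol, and 4 are the liver X receptors (LXR) and targets of theirs. The cells were live CD45+ cells, that is leukocytes, sorted from dorsal skin treated with house dust mite (HDM) allergen and measured by droplet single-cell RNA sequencing of transcript 3′ ends. The IL31RAKO library came from mice without the receptor chain IL31RA of the itch cytokine IL-31, and the WT library from wild-type mice, all C57Bl/6. Both groups had Biostir ointment containing D. farinae mite material on shaved skin 2 times a week for 3 weeks, with 2% SDS on the skin 2 hours before each application. Each library was a single pool of 4 mice, with no replicate for either genotype, so no p-value is given, and untreated skin was not analysed here. The deleted part of the Il31ra gene is not given in the sources used here, and its count did not check the labels: the cells held 26 Il31ra unique molecular identifiers (UMIs, each 1 captured RNA molecule) in the library labelled IL31RAKO and 11 in the library labelled WT.

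Cells make cholesterol from acetyl-CoA through mevalonate, farnesyl diphosphate, squalene and lanosterol. When sterol in the endoplasmic reticulum is low, the protein encoded by Scap carries the SREBP transcription factors, encoded by Srebf1 and Srebf2, to the Golgi, where they are cut and freed to switch on the enzymes of synthesis. The proteins encoded by Insig1 and Insig2 hold SCAP back when sterol is plentiful. Excess sterol is hydroxylated to oxysterols, which activate LXR, and LXR switches on export. Macrophages take up the lipid of dying cells and are known for strong LXR programmes, and dividing lymphocytes need new membrane and are known to induce sterol synthesis.

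The 2 libraries held 71333292 UMIs (IL31RAKO) and 57000499 UMIs (WT), and 14619 and 11934 barcodes were kept as cells, with medians of 3181 and 2918.5 UMIs per cell. There were 247 cell barcodes found in both libraries, 1.69% of IL31RAKO and 2.07% of WT cells. Cells were named from marker genes, 84.0% of IL31RAKO and 84.6% of WT cells, and since no annotation by the authors was used the names may differ from the study's. They are written "-like" for that reason. Of the named classes, 13 had 100 or more cells in each library and were compared. Class shares differed: macrophage-like cells were 18.2% of IL31RAKO and 10.6% of WT cells, and neutrophil-like cells 7.87% and 2.23%. In what follows a level is counts per 1000000 (CPM), the UMIs of a gene over all UMIs of the class, a ratio is the IL31RAKO level over the WT level, and intervals cover counting error only, at 95%.

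Among the 13 classes compared, cholesterol synthesis genes had their highest summed level in the Langerhans-like cells, the epidermal dendritic cells, and their lowest in the neutrophil-like cells, in both libraries. The summed level of the 18 synthesis genes in Langerhans-like cells was 857 CPM in IL31RAKO and 755 CPM in WT. The cycling T-like cells (617 CPM in IL31RAKO, 513 CPM in WT) and the cycling myeloid-like cells (586 and 493 CPM) came next in IL31RAKO. In WT the monocyte-like cells, at 500 CPM, stood level with these 2 classes within the counting intervals, whereas in IL31RAKO they had 394 CPM. Of the synthesis UMIs of cycling myeloid-like cells, cycling Langerhans-like cells held 666 of 1583 in IL31RAKO and 497 of 959 in WT. Most other classes lay close together and their neighbours were not separated beyond counting error. In IL31RAKO the other T-like, regulatory T-like and CD8 T-like cells had 471, 469 and 469 CPM, against 441, 452 and 427 CPM in WT. Type 1 conventional dendritic-like cells (cDC1-like) had 448 CPM in IL31RAKO and 419 CPM in WT, and the type 2 cells (cDC2-like) 380 and 372 CPM. CD4 T-like cells had 390 CPM in IL31RAKO and 426 CPM in WT, and dermal gamma-delta T-like cells 345 CPM in IL31RAKO and 378 CPM in WT. Macrophage-like cells were low, at 322 CPM in IL31RAKO and 298 CPM in WT, and neutrophil-like cells lowest, at 216 and 189 CPM. RNA outside cells, read from barcodes of 10 to 50 UMIs, held 447 CPM in IL31RAKO (interval 357 to 553) and 378 CPM in WT (304 to 465). Neutrophil-like cells in both libraries and macrophage-like cells in IL31RAKO had intervals wholly below that of free RNA. The WT macrophage-like interval (280 to 317 CPM) overlapped it. Gamma-delta T-like, cDC2-like, CD4 T-like and monocyte-like cells of IL31RAKO and cDC2-like cells of WT also had values below free RNA, with overlapping intervals. Depth differed between classes: Langerhans-like cells of IL31RAKO had a median of 10847 UMIs and neutrophil-like cells 1206, and its part in the order was not tested. The order of the 13 classes in one library followed that in the other with a Spearman rho of 0.896, which describes 13 classes that share libraries.

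**Figure D1:**
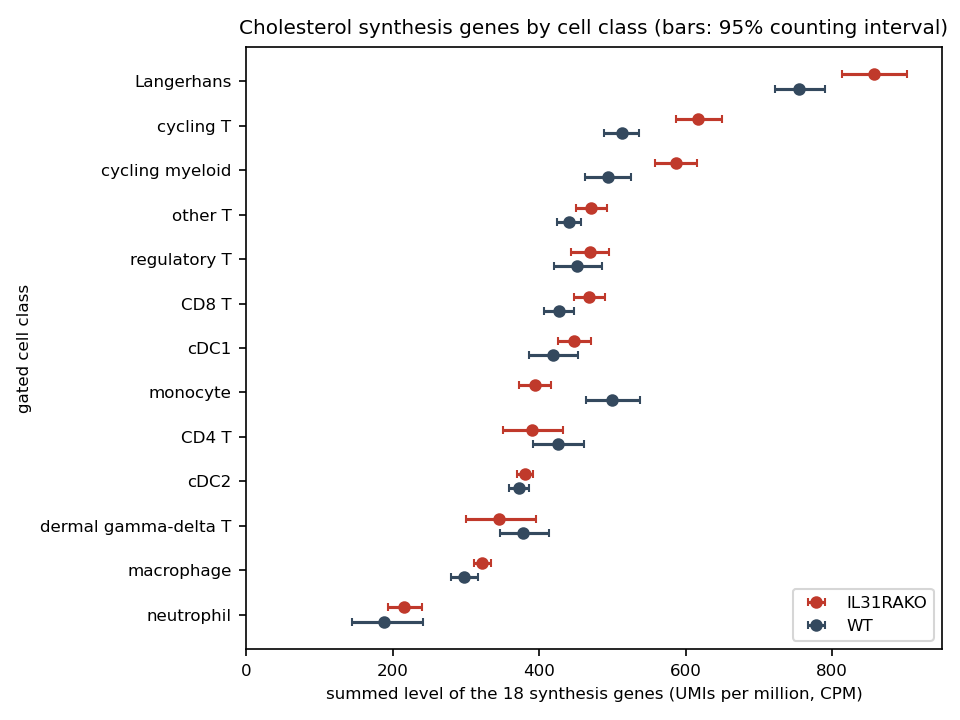
Summed level of the 18 synthesis genes in CPM (x axis) in the 13 cell classes (y axis), IL31RAKO above WT in each class, with 95% counting intervals as bars. Of these classes Langerhans-like cells stand highest at 857 and 755 CPM and neutrophil-like cells lowest at 216 and 189 CPM; monocyte-like cells are the class where IL31RAKO (394 CPM) lies furthest below WT (500 CPM).

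The Langerhans lead was carried by some of the enzymes and not by others. Of the 18 synthesis genes, 10 had their highest level among the 13 classes in Langerhans-like cells in both libraries: Hmgcs1, Pmvk, Idi1, Fdps, Fdft1, Sqle, Cyp51, Tm7sf2, Msmo1 and Sc5d. Hmgcs1, the synthase that commits acetyl-CoA units to the mevalonate route, had 65.4 CPM there in IL31RAKO and 62.1 CPM in WT. Its level in neutrophil-like cells was 11.4 CPM in IL31RAKO and 9.13 CPM in WT, the lowest of all classes in each library. Sqle, squalene epoxidase, which puts oxygen on squalene, had 37.4 CPM in Langerhans-like cells of IL31RAKO and 38.4 CPM in those of WT. In neutrophil-like cells it had 2 UMIs in IL31RAKO and 0 in WT. In these cells 7 synthesis genes were lowest in both libraries (Acat2, Hmgcs1, Mvd, Fdps, Sqle, Msmo1 and Ebp). The WT neutrophil-like cells held 62 UMIs of all 18 synthesis genes together, so the WT places of single genes rest on few UMIs. Pmvk, phosphomevalonate kinase, reached 138 CPM in the Langerhans-like cells of IL31RAKO and 106 CPM in those of WT, while in other T-like cells it had 26.0 and 20.9 CPM. The Langerhans-like cells carried their own markers at 9358 CPM summed in IL31RAKO and 6970 CPM in WT, with none of the 6 at 0, and keratinocyte markers at 122 and 111 CPM.

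Lss broke the pattern. It encodes lanosterol synthase, which closes squalene epoxide into the first sterol, the step right after Sqle. In Langerhans-like cells it had 1 UMI in IL31RAKO (0.584 CPM) and 5 UMIs in WT (1.94 CPM), the lowest class for it in IL31RAKO. In other T-like cells Lss had 7.91 CPM in IL31RAKO and 8.76 CPM in WT. Macrophage-like cells had 2.34 CPM in IL31RAKO and 0.854 CPM in WT. The CD4 T-like, CD8 T-like and other T-like cells each held more Lss than macrophage-, monocyte-, cDC1- and cDC2-like cells in both libraries. Dhcr7, the reductase of the last step, was also lower in Langerhans-like cells (7.59 CPM in IL31RAKO, 10.5 CPM in WT) than in other T-like cells (13.1 and 15.0 CPM). Each of the 18 genes was set against the summed level of the other synthesis genes across the 13 classes. Of them, 10 followed that sum with a Spearman rho over 0.5 in both libraries. Cyp51, the lanosterol demethylase, did so most closely (0.91 in IL31RAKO, 0.91 in WT). The classes share libraries, so these are descriptions. In IL31RAKO Lss (0.08), Pmvk (0.10) and Ebp (0.24) followed the sum of the others least, and in WT Pmvk (0.13), Mvk (0.19), and Lss and Mvd (0.27 each). Ebp, the sterol isomerase, was present throughout: apart from neutrophil-like cells, at 54.5 CPM in IL31RAKO and 54.8 CPM in WT, no class was under 70.0 CPM in IL31RAKO or under 88.7 CPM in WT.

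**Figure D2:**
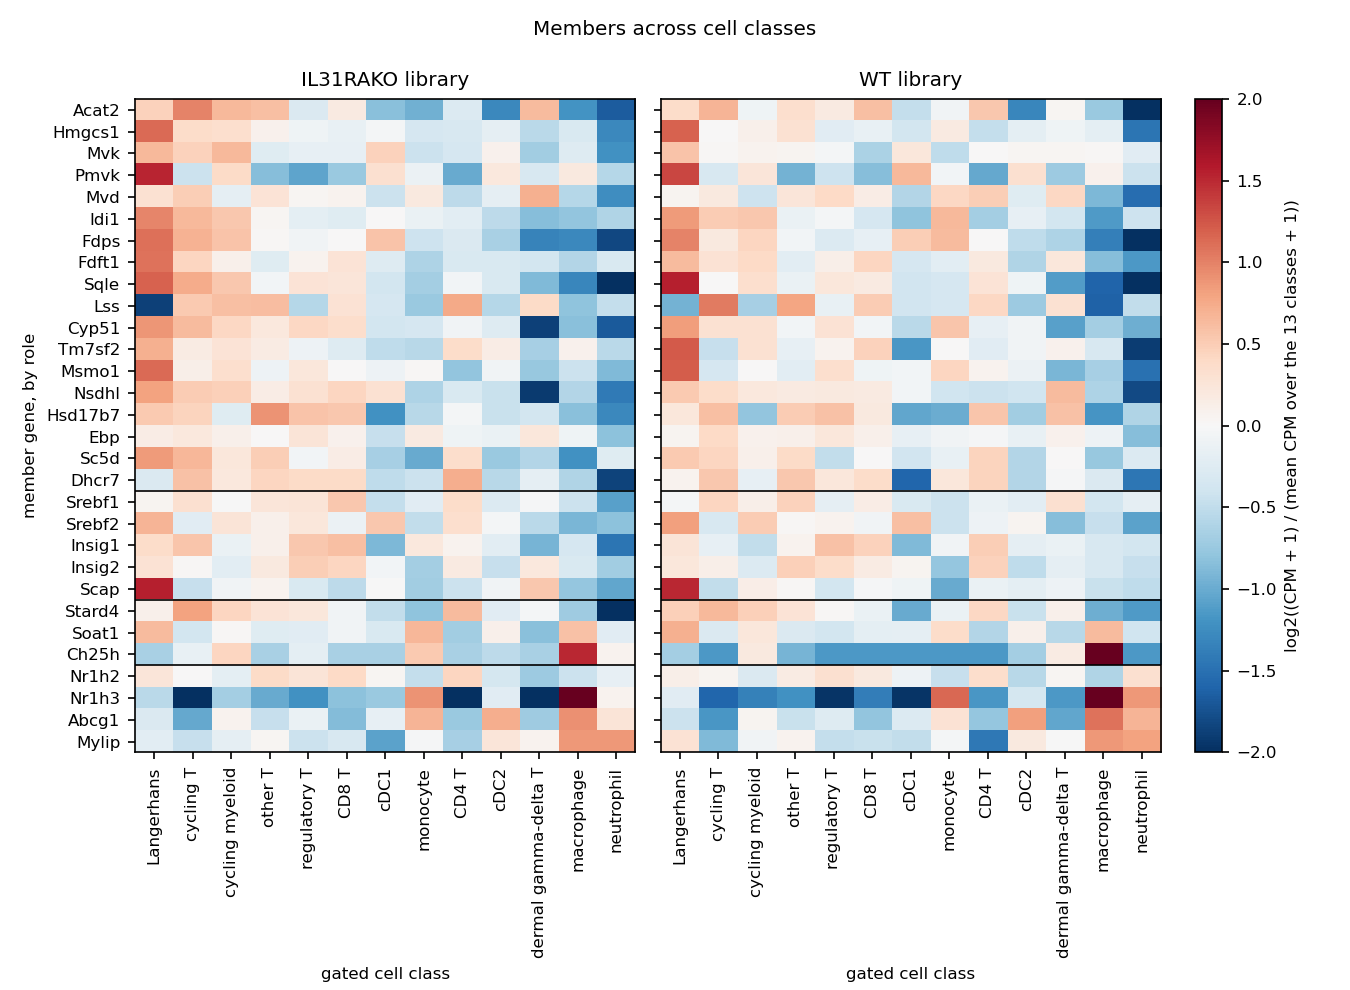
Level of each of the 30 genes (rows, by role: synthesis, sensing, transport and storage, LXR) in the 13 classes (columns), as log2 of CPM plus 1 over the gene's mean over the classes plus 1, IL31RAKO left and WT right. The Langerhans column is red for most synthesis genes and blue for Lss in both panels, and the LXR genes Nr1h3, Abcg1 and Mylip are red in macrophage-like cells.

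Sterol synthesis genes are textbook targets of SREBP, which binds sterol regulatory elements close to sites of the factor NF-Y, and promoters were read for both. RefSeq promoters on GRCm38.p6, 250 bases before to 50 after the gene's start, were matched for 25 of the 30 genes; Fdps, Fdft1, Sqle, Stard4 and Abcg1 had no entry. The NF-Y box, letters CCAAT on either strand (ATTGG when read on the other), was in a promoter of 14 of 15 matched synthesis genes (93.3%), against 41.1% of all 27025 genes in the table. A sterol regulatory element core, letters TCACNCCAC on either strand, was in 1 of the 15 (Hmgcs1), against 1.44% of all genes. The matches in Hmgcs1 did not overlap, and a match is a description of letters, not a binding site. The promoters shown are that of Hmgcs1, the one with both motifs, and those of Idi1, Cyp51 and Msmo1, whose levels led in Langerhans-like cells and which differed between the libraries in single classes described further on. They are written 5′ to 3′ on the gene's strand, with matches in capitals.
Hmgcs1 (chr13:119690101-119690400, + strand): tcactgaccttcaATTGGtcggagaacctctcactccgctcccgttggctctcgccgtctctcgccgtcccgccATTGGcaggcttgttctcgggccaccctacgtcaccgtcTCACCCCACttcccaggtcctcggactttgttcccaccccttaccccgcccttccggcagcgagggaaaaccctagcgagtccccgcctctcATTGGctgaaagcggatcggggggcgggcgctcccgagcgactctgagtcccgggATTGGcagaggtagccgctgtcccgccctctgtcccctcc
Idi1 (chr13:8885356-8885655, + strand): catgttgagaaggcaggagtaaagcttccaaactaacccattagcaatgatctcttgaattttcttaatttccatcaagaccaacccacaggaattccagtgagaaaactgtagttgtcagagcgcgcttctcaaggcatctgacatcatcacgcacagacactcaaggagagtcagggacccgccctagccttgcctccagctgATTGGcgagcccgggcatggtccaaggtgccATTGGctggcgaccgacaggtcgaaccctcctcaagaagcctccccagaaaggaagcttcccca
Cyp51 (chr5:4104648-4104947, - strand): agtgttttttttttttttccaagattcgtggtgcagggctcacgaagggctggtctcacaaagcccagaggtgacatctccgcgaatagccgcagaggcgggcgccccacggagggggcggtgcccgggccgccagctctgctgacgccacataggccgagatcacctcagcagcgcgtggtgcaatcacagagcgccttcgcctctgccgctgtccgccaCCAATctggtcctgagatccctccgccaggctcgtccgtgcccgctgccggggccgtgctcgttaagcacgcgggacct
Msmo1 (chr8:64733529-64733828, - strand): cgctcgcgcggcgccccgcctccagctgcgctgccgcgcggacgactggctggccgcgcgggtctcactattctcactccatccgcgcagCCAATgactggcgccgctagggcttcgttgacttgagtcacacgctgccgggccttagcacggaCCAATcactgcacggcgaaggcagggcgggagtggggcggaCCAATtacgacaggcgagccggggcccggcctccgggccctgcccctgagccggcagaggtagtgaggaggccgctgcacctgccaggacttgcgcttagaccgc

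The Hmgcs1 promoter held TCACCCCAC at -137, counted in bases from the gene's start with negative positions before it, and NF-Y boxes at -237, -176, -45 and 11. Idi1 had boxes at -45 and -14, Cyp51 1 box at -29, and Msmo1 boxes at -160, -96 and -55. Of the sensing genes 4 of 5 held an NF-Y box, and of the matched LXR genes 1 of 3.

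Of the 5 genes that sense sterol, 2 were highest in Langerhans-like cells in both libraries: Scap, the sterol-sensing escort, and Srebf2, the SREBP that acts mainly on cholesterol genes. Scap had 50.8 CPM there in IL31RAKO and 52.8 CPM in WT, and in cDC1-like cells 16.7 CPM in both. Srebf2 had 63.0 CPM in Langerhans-like cells of IL31RAKO and 59.4 CPM in those of WT, with cDC1-like cells next at 56.9 and 50.7 CPM. Insig1, itself an SREBP target in textbook accounts, was not highest there: it had 33.9 CPM in IL31RAKO and 33.4 CPM in WT, against 39.9 and 38.6 CPM in CD8 T-like cells. Srebf1, which also drives fatty acid genes, ranged over the classes between 8.24 and 27.3 CPM in IL31RAKO and between 15.3 and 29.1 CPM in WT. Insig2 was highest in regulatory T-like cells in IL31RAKO (34.3 CPM) and in other T-like cells in WT (35.9 CPM). The summed level of all 5 was 197 CPM in Langerhans-like cells of IL31RAKO and 196 CPM in those of WT.

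The 4 LXR genes had another distribution: Nr1h3 and Abcg1 were highest in macrophage-like cells in both libraries, Mylip in WT only, and Nr1h2 in neither. Nr1h3, which encodes LXR-alpha, had 19.2 CPM in macrophage-like cells of IL31RAKO and 15.95 CPM in those of WT. In other T-like cells it had 0.989 CPM in IL31RAKO and 0.674 CPM in WT, 4 UMIs in each. Abcg1, a sterol exporter and LXR target, had 68.0 CPM in macrophage-like cells of IL31RAKO and 85.4 CPM in those of WT, and was lowest in cycling T-like cells at 17.2 CPM in both. Mylip, an LXR-induced ubiquitin ligase that limits lipoprotein uptake, had 20.8 CPM in macrophage-like cells of IL31RAKO and 25.6 CPM in those of WT, close to neutrophil-like cells at 20.9 and 24.3 CPM. Across the 13 classes these 3 had a negative Spearman rho with the summed synthesis level in both libraries. It was -0.33 in IL31RAKO and -0.30 in WT for Nr1h3, -0.46 and -0.41 for Abcg1, and -0.57 and -0.38 for Mylip. These values describe 13 classes that share libraries, and an inverse relation was not tested. The macrophage markers included Apoe, another LXR target, and its part was not tested. Nr1h2, which encodes LXR-beta, had a rho of 0.43 in IL31RAKO and 0.11 in WT. It was highest in CD4 T-like cells, at 49.4 CPM in IL31RAKO and 46.8 CPM in WT, and lowest in gamma-delta T-like cells in IL31RAKO (21.5 CPM) and in macrophage-like cells in WT (23.6 CPM). Soat1, which esterifies cholesterol for storage, was high in monocyte-like, macrophage-like and Langerhans-like cells. It had 85.8, 81.3 and 84.1 CPM in these in IL31RAKO, against 73.6, 88.3 and 93.5 CPM in WT. Stard4, a sterol carrier, went with the enzymes instead and was highest in cycling T-like cells, at 27.4 CPM in IL31RAKO and 23.2 CPM in WT. Ch25h, the oxysterol-making cholesterol hydroxylase, was highest in macrophage-like cells among the 13 classes, at 3.45 CPM in IL31RAKO and 12.0 CPM in WT. These cells held 31 of its 61 UMIs in IL31RAKO and 42 of 84 in WT. Of the rest, endothelial-like cells held 6 in IL31RAKO and 17 in WT, and keratinocyte-like cells 0 and 11, in classes with under 100 cells in at least 1 library. The level in endothelial-like cells was above that in macrophage-like cells in both libraries, but on few UMIs from 35 cells in IL31RAKO and 75 in WT.

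Dividing cells were then set against non-cycling cells of the same lineage within each library, all T-like classes together, cycling cells being those with 3 or more of 9 proliferation markers, none of them among the 30 genes. In T-like cells the summed synthesis level was higher in cycling cells in both libraries. It was 617 CPM in cycling and 458 CPM in non-cycling T-like cells of IL31RAKO, a ratio of 1.35 (interval 1.27 to 1.43). In WT it was 513 CPM in cycling and 431 CPM in non-cycling T-like cells, a ratio of 1.19 with a lower bound of 1.13. Of the 18 genes, 17 were above 1 in IL31RAKO and 14 in WT, 13 of them in both, with median ratios of 1.33 and 1.14. Intervals lay wholly above 1 for 9 genes in IL31RAKO and 5 in WT, 4 of them in both. The same count over all genes was not made, so these counts cannot be set against genes in general. Idi1, the isomerase of the isoprenoid units, had 34.8 CPM in cycling and 19.4 CPM in non-cycling T-like cells of IL31RAKO (ratio 1.79). Its WT levels were 29.8 and 17.2 CPM (ratio 1.73), close to the IL31RAKO ratio. Fdps, which makes farnesyl diphosphate, had 126 CPM in cycling and 73.3 CPM in non-cycling T-like cells of IL31RAKO (ratio 1.71), and 78.8 and 62.1 CPM in WT (ratio 1.27). Sqle differed more between the libraries, with 27.4 CPM in cycling and 17.2 CPM in non-cycling T-like cells of IL31RAKO (ratio 1.60), and 12.6 and 12.4 CPM in WT (ratio 1.02). The export gene Abcg1 was the other way round, with 17.2 CPM in cycling and 24.6 CPM in non-cycling T-like cells of IL31RAKO (ratio 0.699), and 17.2 and 26.0 CPM in WT (ratio 0.661).

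**Figure D3:**
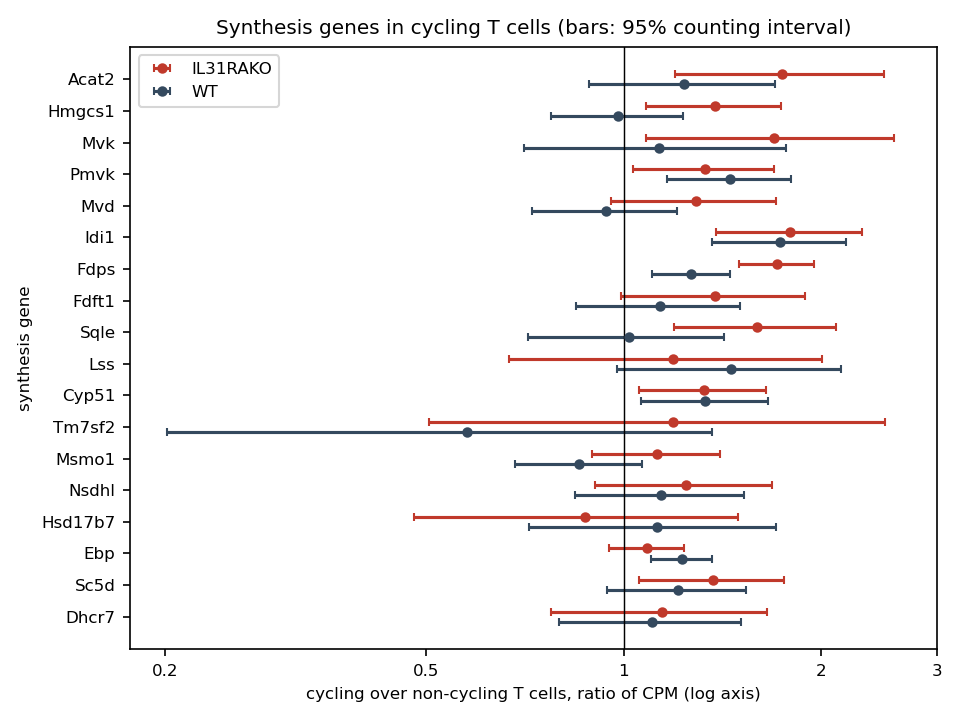
Ratio of the level in cycling to that in non-cycling T-like cells (x axis, log scale) for each of the 18 synthesis genes (y axis), IL31RAKO above WT for each gene, with 95% counting intervals. Of the 18 genes 17 lie above 1 in IL31RAKO and 14 in WT, with intervals wholly above 1 for 9 and 5. Idi1 is high in both (1.79 and 1.73).

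In the myeloid-like cells the same comparison gave 586 CPM in cycling and 399 CPM in non-cycling cells of IL31RAKO (ratio 1.47), and 493 and 436 CPM in WT (ratio 1.13). Against non-cycling Langerhans-like and dendritic-like cells only, the ratio of all cycling myeloid-like cells was 1.30 in IL31RAKO (1.23 to 1.37). In WT it was 1.04 (0.971 to 1.11). Of the 4 myeloid classes with 18 or more cycling cells in each library, cycling cells had the higher value in all 4 in IL31RAKO, and in WT in macrophage-like cells only. No intervals were computed for these single classes, and some orderings may lie within counting error, so the counts do not set the libraries apart. The cycling macrophage-like cells held 73 synthesis UMIs in IL31RAKO and 95 in WT. Within Langerhans-like cells alone, cycling cells had 973 CPM in IL31RAKO and 743 CPM in WT, against 857 and 755 CPM in those not cycling. Within cDC2-like cells, cycling cells had 445 CPM in IL31RAKO and 332 CPM in WT, against 380 and 372 CPM. Within cDC1-like cells they had 526 CPM in IL31RAKO and 377 CPM in WT, against 448 and 419 CPM. Within macrophage-like cells they had 348 CPM in IL31RAKO and 449 CPM in WT, against 322 and 298 CPM. Without the 8% of cells with most UMIs, the myeloid log2 ratio of cycling over non-cycling cells was 0.14 in IL31RAKO and -0.38 in WT, the last opposite in sign to its value over all cells, 0.18. The T-like log2 ratio in WT was 0.15 without those cells, against 0.25 with them.

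The comparison of the genotypes asked whether loss of the IL-31 receptor goes with a change in sterol genes in mite-inflamed skin. Over all cells the synthesis route was at the same level: 446 CPM in IL31RAKO (27368 UMIs) and 445 CPM in WT (20559 UMIs), a ratio of 1.00 (0.985 to 1.02). No synthesis gene differed by 1.5-fold; the ratios ran between 0.802 for Acat2, the thiolase that starts the route, and 1.20 for Tm7sf2, a sterol reductase. There were 10 genes above 1 and 8 below, and their median log2 ratio was 0.02, against -0.10 for all 13307 genes with 50 or more UMIs. Acat2 had 7.30 CPM in IL31RAKO and 9.11 CPM in WT. Tm7sf2 had 3.21 CPM in IL31RAKO and 2.68 CPM in WT. Pmvk, with more UMIs behind it, had 50.3 CPM in IL31RAKO and 42.2 CPM in WT, a ratio of 1.19 (1.13 to 1.26). Hmgcs1 had 30.7 CPM in IL31RAKO and 29.9 CPM in WT, and Cyp51 26.6 and 25.4 CPM. Of the sensing genes only Srebf2 lay above 1, with 36.2 CPM in IL31RAKO and 33.7 CPM in WT (1.08), and the other 4 lay between 0.818 for Srebf1 and 0.916 for Insig1. Stard4 (0.965), Soat1 (1.03), Nr1h2 (1.01), Abcg1 (1.06) and Mylip (0.851) also stayed within 1.5-fold.

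**Figure D4:**
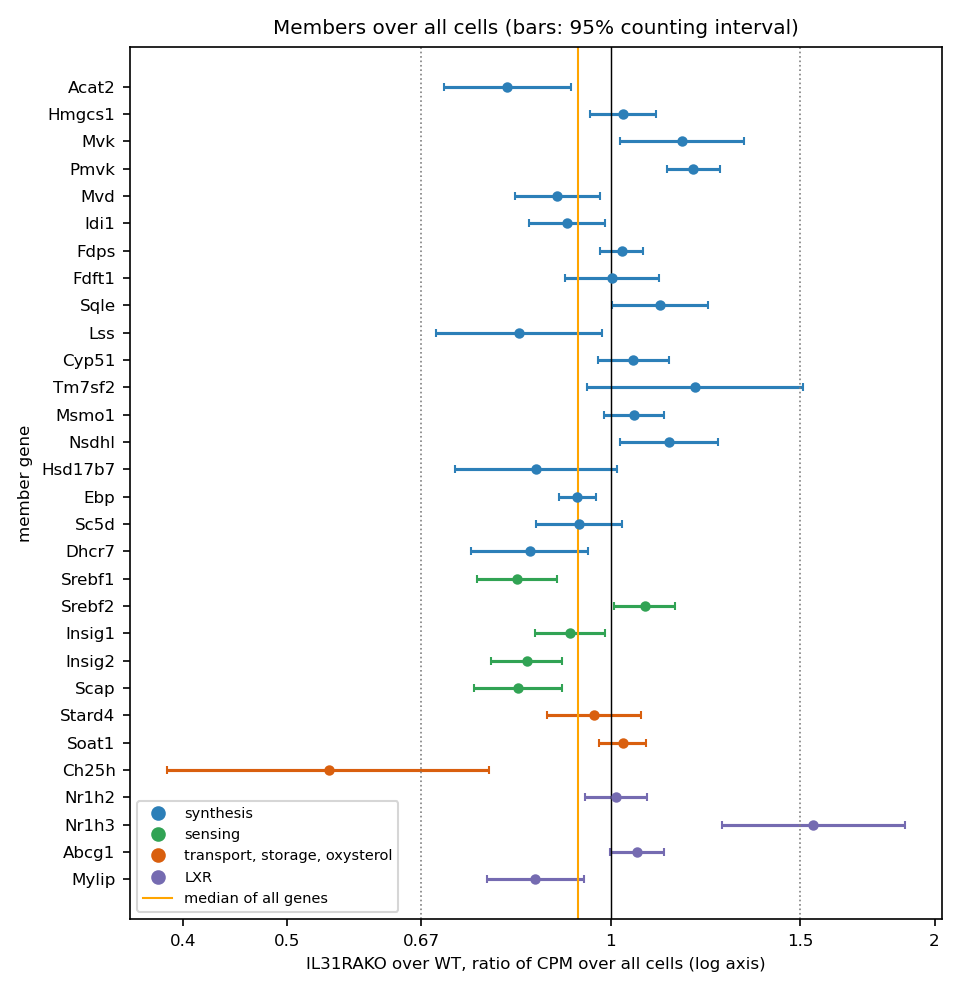
Ratio of the IL31RAKO level to the WT level over all cells (x axis, log scale) for the 30 genes (y axis, coloured by role), with 95% counting intervals; dotted lines mark 1.5-fold and the orange line the median of all genes. Nr1h3 (1.54) lies past 1.5-fold on the higher side and Ch25h (0.547) on the lower side, and every synthesis gene lies between 0.802 and 1.20.

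Past 1.5-fold were 1 gene higher (5.37% of all genes tested were) and 1 lower (7.92% of all genes). Nr1h3 had 319 UMIs in IL31RAKO and 156 in WT, 5.20 and 3.37 CPM, a ratio of 1.54 (1.27 to 1.88). Macrophage-like cells held 54.2% of the Nr1h3 UMIs in IL31RAKO and 35.9% in WT, and were themselves a larger share of IL31RAKO cells. With the 13 classes weighted equally in both libraries the log2 ratio of Nr1h3 was 0.05, against 0.62 over all cells, and within macrophage-like cells the ratio was 1.21 (0.888 to 1.66). It also lay within 1.5-fold with free RNA subtracted (log2 ratio 0.30) and without the 8% of cells with most UMIs (0.58). Ch25h had 61 UMIs in IL31RAKO and 84 in WT, 0.994 and 1.82 CPM, a ratio of 0.547 (0.387 to 0.770). Its log2 ratio was -1.13 with the classes weighted equally and -0.41 as a mean of per-cell levels, against -0.87, so it was lower in IL31RAKO in each. The per-cell mean lay within 1.5-fold, as did the values with free RNA subtracted (-0.49) and without the 8% of cells with most UMIs (-0.45). The lower Ch25h count in IL31RAKO lay in macrophage-like cells (31 UMIs, against 42 in WT) and in the small endothelial-like and keratinocyte-like classes. Cells outside these classes held more Ch25h UMIs in IL31RAKO than in WT, on few UMIs, so the difference over all cells was not shared by them.

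Within macrophage-like cells Ch25h showed the largest difference of any named gene. It had 31 UMIs in 23 of 2654 cells of IL31RAKO (3.45 CPM) and 42 UMIs in 31 of 1269 cells of WT (12.0 CPM), a ratio of 0.288 (0.175 to 0.470). The share of macrophage-like cells with a Ch25h UMI was 0.867% in IL31RAKO and 2.44% in WT, although the IL31RAKO cells were deeper (medians of 3113 and 2299 UMIs). Other T-like cells, which should lack the gene, had it in 0 of 1529 cells of IL31RAKO, which allows a share of up to 0.196% of cells with a UMI, and in 1 of 2235 cells of WT, at medians of 2409 and 2473 UMIs. These are shares of cells with a UMI and not of cells expressing the gene. Ch25h was the 1 member past 1.5-fold lower in these cells (2.89% of all genes), and Sqle, named after its values were seen, was the 1 higher (4.36% of all genes), with 5.90 CPM in IL31RAKO and 3.42 CPM in WT (1.73, 0.910 to 3.55). Abcg1 was at 0.796 (0.692 to 0.916) and Mylip at 0.812 (0.628 to 1.06), both LXR targets within 1.5-fold, beside Nr1h3 at 1.21. The neutrophil markers summed to 593 CPM in macrophage-like cells of IL31RAKO and 146 CPM in those of WT, and were higher in IL31RAKO in all 13 classes, T-like cells included. Their part in the Ch25h result was not tested.

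Of the 13 classes, monocyte-like cells were the 1 whose summed synthesis ratio had an interval wholly below 1. The sum was 394 CPM in IL31RAKO and 500 CPM in WT, a ratio of 0.789 (0.720 to 0.866). Of the 9 synthesis genes with 50 or more UMIs, 4 were past 1.5-fold lower (5.17% of all genes in these cells were) and 0 higher (4.34% of all genes), with a median log2 ratio of -0.42, against -0.03 for all genes tested. Fdps had 57.7 CPM in IL31RAKO (187 UMIs) and 108 CPM in WT (155 UMIs), a ratio of 0.536 (0.431 to 0.668). Cyp51 had 21.0 CPM in IL31RAKO and 36.8 CPM in WT, a ratio of 0.570 (0.392 to 0.833). Idi1 had 19.7 CPM in IL31RAKO and 32.6 CPM in WT, a ratio of 0.605 (0.409 to 0.902). The fourth, Sc5d, a sterol desaturase named after its values were seen, had 9.56 CPM in IL31RAKO and 16.7 CPM in WT, with an interval that included 1 (0.326 to 1.02). Hmgcs1 (0.748) and Msmo1 (0.758) lay below 1 within 1.5-fold, Pmvk (1.10) and Ebp (1.15) above 1. The 5 sensing genes did not share the difference, with 98.1 CPM in IL31RAKO and 88.8 CPM in WT. Acly, which makes the acetyl-CoA used for both sterols and fatty acids, was higher, at 51.8 CPM in IL31RAKO and 33.3 CPM in WT (1.56, lower bound 1.12).

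The monocyte-like difference lay in the cells with most synthesis UMIs more than in how many cells had any. Cells with at least 1 synthesis UMI were 66.8% in IL31RAKO and 63.9% in WT, and those with 5 or more were 7.96% and 12.95%, at medians of 4696 and 4538 UMIs per cell. Without the 3 cells with most synthesis UMIs in each library, the log2 ratio was -0.30, against -0.34 with them. In monocyte-like cells neutrophil markers summed to 768 CPM in IL31RAKO and 149 CPM in WT, with none of 8 at 0. Macrophage markers there summed to 4762 CPM in IL31RAKO and 2976 CPM in WT. Neither difference was limited to this class: neutrophil markers were higher in IL31RAKO in 13 of 13 classes and macrophage markers in 12. Their part in the difference was not tested. The log2 ratio of the sum was -0.51 with stricter gates, -0.22 without the monocyte marker Chil3, and -0.22 without Fdps. As a mean of per-cell levels Idi1 had a log2 ratio of -0.38, within 1.5-fold.

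Cycling T-like cells stood on the other side. Their summed level had a ratio of 1.20 (1.12 to 1.29), and 3 of 16 synthesis genes tested were past 1.5-fold higher (3.97% of all genes in these cells were) and 0 lower (4.8%), with a median log2 ratio of 0.30, against -0.03 for all genes. Sqle had 27.4 CPM in IL31RAKO (67 UMIs) and 12.6 CPM in WT (44 UMIs), a ratio of 2.17 (1.46 to 3.25). Fdps had 126 CPM in IL31RAKO and 78.8 CPM in WT, a ratio of 1.59 (1.35 to 1.88). The third, Mvk, mevalonate kinase, named after its values were seen, was at 1.65 with an interval that included 1 (0.941 to 2.90). Insig1, the sterol-regulated brake on SREBP, was also past 1.5-fold higher, with 38.8 CPM in IL31RAKO and 24.6 CPM in WT (1.58, 1.16 to 2.13). It lay within 1.5-fold with free RNA subtracted (log2 ratio 0.53) and with stricter gates (0.54). Ebp was on the lower side, at 112 CPM in IL31RAKO and 132 CPM in WT (0.855), and without it the summed log2 ratio was 0.41, against 0.27. The cycling T-like cells differed in makeup: dermal gamma-delta T-like cells were 4.47% of them in IL31RAKO and 25.3% in WT, and regulatory T-like cells 29.4% and 15.0%. Within subsets the summed level was 667 CPM in IL31RAKO and 524 CPM in WT for other T-like cells, 564 and 470 CPM for regulatory T-like, 633 and 579 CPM for CD8 T-like, and 407 and 456 CPM for gamma-delta T-like cells.

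**Figure D5:**
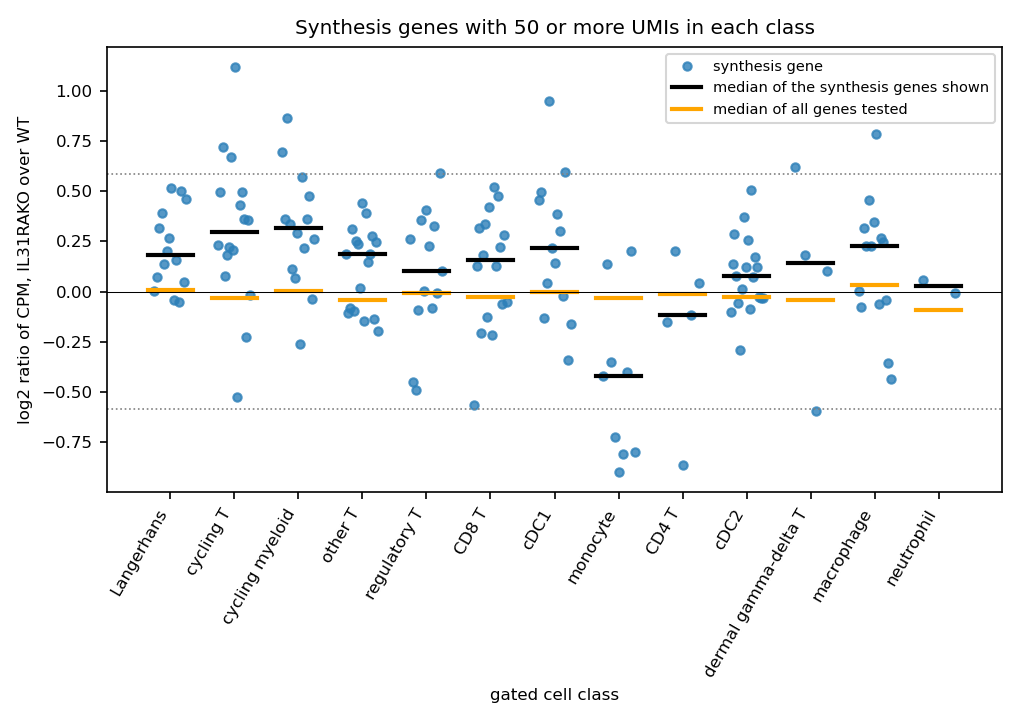
Log2 ratio of the IL31RAKO to the WT level (y axis) of each synthesis gene with 50 or more UMIs in a class (points) in the 13 classes (x axis), with the median of the points in black, the median of all genes tested in orange and 1.5-fold dotted. Monocyte-like cells have a median of -0.42, and cycling T-like cells 0.30.

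In the remaining classes the differences were smaller or rested on single genes. In cycling myeloid-like cells 2 of 14 synthesis genes were past 1.5-fold higher (4.1% of all genes were) and 0 lower (3.83%). They were Acat2 and Mvk, named after their values were seen, each with an interval that included 1; the sum had a ratio of 1.19 (1.10 to 1.29). In cDC1-like cells 2 of 13 were higher (4.57% of all genes) and 0 lower (3.69%). Idi1 there had 21.9 CPM in IL31RAKO (79 UMIs) and 11.3 CPM in WT (17 UMIs), a ratio of 1.94 (1.14 to 3.49), and Nsdhl, a sterol dehydrogenase named after its values were seen, was at 1.51 (0.900 to 2.66). The median depth of cDC1-like cells was 11055.5 UMIs in IL31RAKO and 8992 UMIs in WT. In Langerhans-like cells 0 of 14 synthesis genes passed 1.5-fold in either direction (5.19% of all genes were higher and 4.19% lower). Their sum had a ratio of 1.14 (1.06 to 1.22), but its log2 ratio was -0.080 without the 8% of cells with most UMIs, against 0.18. Mylip, named after its values were seen, was lower there, at 9.34 CPM in IL31RAKO and 16.7 CPM in WT (0.560, 0.294 to 1.01).

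Among T-like cells, CD4 T-like cells had 1 member higher (3.27% of all genes) and 1 lower (4.73%). Srebf2 had 49.4 CPM in IL31RAKO and 30.7 CPM in WT, a ratio of 1.61 (1.03 to 2.51). As a mean of per-cell levels it lay within 1.5-fold (log2 ratio 0.55). Msmo1, the methylsterol oxidase, had 20.9 CPM in IL31RAKO and 38.0 CPM in WT, a ratio of 0.549 (0.306 to 0.944). In CD8 T-like cells Scap was the 1 lower (3.85% of all genes), with 11.4 CPM in IL31RAKO and 17.5 CPM in WT, a ratio of 0.650 (0.438 to 0.957), while the summed synthesis level had a ratio of 1.10 (1.03 to 1.17). With cells under 5% mitochondrial UMIs Scap lay within 1.5-fold (log2 ratio -0.46). Regulatory T-like cells had 1 gene past 1.5-fold, Sc5d at 1.51 (0.903 to 2.60), named after its values were seen (3.9% of all genes were higher and 3.02% lower). Dermal gamma-delta T-like cells had Pmvk higher at 1.54 (4.45% of all genes) and Fdps at 0.662 and Nr1h2 at 0.574 lower (7.96% of all genes), all 3 named after their values were seen and with intervals that included 1. In other T-like, cDC2-like and neutrophil-like cells none of the 27, 28 and 5 members tested passed 1.5-fold, against 2.66% higher and 3.59% lower of all genes in other T-like, 2.03% and 2.55% in cDC2-like and 6.95% and 11.3% in neutrophil-like cells. Over all 13 classes, 12 of 262 pairs of member and class were higher and 10 lower, against 3.82% and 4.23% of the pairs over all genes.

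Other genes of sterol and fatty acid metabolism, 31 in number and outside the 30, were measured the same way. Of the 28 with 50 or more UMIs over all cells, 3 were past 1.5-fold higher (5.37% of all genes) and 0 lower (7.92%), with a median log2 ratio of 0.05. Pltp, which transfers phospholipid between lipoproteins, had 191 CPM in IL31RAKO and 127 CPM in WT (1.503, 1.46 to 1.55). Hsd3b7, an enzyme of bile acid synthesis, had 58 UMIs in IL31RAKO and 18 in WT (2.43). The third is not reported here. The fatty acid genes as a sum were at 130 CPM in IL31RAKO and 129 CPM in WT. Scd1, a fatty acid desaturase, had 16.5 CPM in IL31RAKO and 12.1 CPM in WT, with 437 of its 1014 UMIs in IL31RAKO in a single cell. Fasn, fatty acid synthase, had 9.48 and 11.9 CPM. Gpr183, the receptor for oxysterols made through Ch25h, had 107 CPM in IL31RAKO and 127 CPM in WT (0.847).

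Some classes under 100 cells in a library are given as values only. Keratinocyte-like cells, which a CD45+ sort would be meant to leave out, had a higher sum than Langerhans-like cells in both libraries, at 1510 CPM in IL31RAKO (61 cells) and 851 CPM in WT (102 cells). A single cell held 478 of the 1155 synthesis UMIs of this class in IL31RAKO (41.4%), against 125 of 1003 in WT (12.5%). Mature dendritic-like cells had 819 CPM in IL31RAKO, below Langerhans-like cells (857 CPM), and 855 CPM in WT, above them (755 CPM). The intervals overlapped in both libraries (749 to 895 and 814 to 902 CPM in IL31RAKO, 768 to 949 and 722 to 790 CPM in WT). Fibroblast-like cells had 675 CPM in IL31RAKO and 325 CPM in WT, and mast or basophil-like cells 212 and 153 CPM.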

How the data were processed

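Single-cell RNA was measured in 2 libraries, IL31RAKO and WT, with version 2 of the 10x Chromium 3′ kit (30000 cells loaded each, reads of 26 and 98 cycles, per the labels' protocols). Cell Ranger 3.1, Seurat 3.2.2 and mm10 are named in the submitters' processing notes, with no role given. The values the authors deposited were raw UMI counts for 27998 genes and 737280 barcodes per library, empty droplets included.

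Barcodes were taken as cells from 500 UMIs and 250 genes on, under 10% mitochondrial UMIs; 16169 IL31RAKO and 13802 WT barcodes passed before the mitochondrial limit. A cell joined the marker list with its highest score (mean log of UMIs per 10000, over the score's 99.9th percentile) at a score of 0.3 or more, a lead of 0.05 and 2 or more markers; these thresholds were set after the data were seen. Cells scoring for lymphoid and non-lymphoid lists together (626 IL31RAKO, 338 WT) were left out of the classes as possible doublets, and no doublet caller was run. Values over all cells include them, and also the cells that joined no list (1718 IL31RAKO, 1505 WT). Of 136 markers, 11 matched no symbol and were not used here.

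UMIs were summed per class and library, and CPM ratios have exact Clopper-Pearson intervals for counting error. UMIs of 1 cell are not replicates. A gene was called at 50 or more UMIs in the class and 1.5-fold. Genes named within a class also had an interval that excluded 1, at most 5 each way. Alternatives changed the cell filter, scaling, gates, call rule, free RNA, barcodes found in both libraries and cells with most UMIs. The code was checked on simulated counts. Members and lists were chosen with earlier results of these data known. Python 3.11.15, numpy 2.4.6, scipy 1.17.1 and pandas 2.3.3 were used.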

Additional observations from a re-analysis of the deposited data

Results flagged for a closer look

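For 2 genes a pair of classes moved in opposite directions, and neither difference was tested, since each genotype has 1 library. Fdps had 126 CPM in IL31RAKO and 78.8 CPM in WT in cycling T-like cells, and 57.7 CPM in IL31RAKO and 108 CPM in WT in monocyte-like cells; the log2 ratios of 0.67 and -0.90 differ by 1.57. Idi1 had 21.9 CPM in IL31RAKO and 11.3 CPM in WT in cDC1-like cells, and 19.7 CPM in IL31RAKO and 32.6 CPM in WT in monocyte-like cells; the log2 ratios of 0.95 and -0.72 differ by 1.68.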

How the results depend on the processing

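No paired analysis was possible because each genotype has 1 library, and leaving out a replicate could not be run. The 11 pairs of gene and class chosen by the naming rule kept their direction under every alternative run, but 4 came within 1.5-fold under at least 1: Scap in CD8 T-like cells (-0.46 under 5% mitochondrial UMIs), Srebf2 in CD4 T-like (0.55) and Idi1 in monocyte-like cells (-0.38) as a mean of per-cell levels, and Insig1 in cycling T-like cells (0.53 with free RNA subtracted, 0.54 with stricter gates). The summed log2 ratio over all cells, 0.00, was -0.029 under 5% mitochondrial UMIs, 0.10 scaled to the median gene, -0.060 as a mean of per-cell levels, -0.038 without the 8% of cells with most UMIs and 0.075 with equal class weights. Scaling to the median gene sets the median of all genes, -0.10 over all cells, to 0. Without the 8% of cells with most UMIs, the summed log2 ratio was -0.080 in Langerhans-like (0.18 with them), 0.42 in cycling myeloid-like (0.25) and 0.10 in cDC2-like cells (0.03), and cycling over non-cycling cells was 0.15 in WT T-like (0.25), 0.14 in IL31RAKO myeloid-like (0.56) and -0.38 in WT myeloid-like cells (0.18). In monocyte-like cells (-0.34) it was -0.51 with stricter gates. Alternatives chosen after seeing the data gave, without Ebp, 0.034 over all cells, 0.41 in cycling T-like (0.27) and -0.51 in monocyte-like cells, and, without the 3 cells with most synthesis UMIs, 0.25 in cDC1-like cells (0.10). In regulatory T-like cells the lowest of 13 alternatives was -0.064, against 0.053. The 12 higher and 10 lower pairs of member and class became 45 and 33 with a smaller fold, 0.32 on the log2 scale, 24 and 22 at 20 or more UMIs, 41 and 43 with no minimum, and 21 and 18 with free RNA subtracted. Shares over all genes were not computed under these changed rules, so these counts cannot be set against genes in general. The cause of these shifts was not tested. Most members had few UMIs in a class, which limits what the smaller classes can show.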
